A study of Mus musculus with 137 samples.

Results

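The resting lung was compared between ages in 9 untreated mice of a larger series, whose other lungs had been given saline (69) or bleomycin (59). The 5 old lungs and the 4 young lungs were all those whose labels gave no treatment and day 0. All mice were male C57BL/6J, an inbred laboratory strain, aged 21 months (old) or 8 to 12 weeks (young), and none of these 9, labelled as healthy, received bleomycin, a drug that scars the lung, or saline. For each lung, RNA from 20 mg of frozen tissue was made into a poly-A library and counted per gene, with total counts of 18.28 to 24.83 M reads per lung. The labels describe separate lungs but not cages, dates or litters, so part of the spread between lungs may be technical. Unless stated otherwise, p-values of the age comparison use the spread within groups across the whole series. Most lungs of the series had been given saline or bleomycin, so these p-values do not measure the spread of the 9 untreated lungs alone. The saline lungs, 40 old and 29 young, taken on days 14, 21, 28, 35, 42 and 56, share no library with the 9 and serve below as a second reading of the same age difference. Across the series the young libraries were numbered 2 to 72 and the old 73 to 150. Anything that follows this order cannot be told apart from age, in the untreated or in the saline lungs.

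The lung is a mixture of airway, alveolar, vascular, connective and immune cells, and whole-tissue RNA sums over all of them. With age the mouse lung is known to gain lymphocytes, above all memory and effector T cells and antibody-secreting cells, and to make less new collagen. In such samples, fewer cells of a type and less RNA per cell cannot be told apart. CD8 T cells, which appear below, kill infected or altered cells, carry the Cd8a and Cd8b1 co-receptor chains, and each clone carries 1 rearranged T cell receptor.

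The tissue label held in all 9 lungs: the surfactant gene Sftpc was at 12360 to 26200 CPM (counts per M reads, with TMM scaling of library sizes), the alveolar type 1 gene Ager at 1410 to 2826 and the endothelial gene Pecam1 at 696 to 885. Lungs of 1 age differed from each other by 6.37 to 62.84 times the variance that read sampling alone gives, so none was a duplicate. Several lungs stood apart. In young replicate 3 (library 4 in the labels), 83 genes were at least 4-fold above all 8 other lungs, against 9 in young replicate 1 and 0 in young replicates 2 and 4. In old replicate 2 the number was 67, and in the other 4 old lungs 0 to 3. Young replicate 4 departed downward, with 38 genes at least 4-fold below every other lung, among them the airway genes Gp2, Muc5b and Bpifb1 and the immunoglobulin segment Ighv1-53.

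Among the genes that set young replicate 3 apart were Krt5 and Krt14 of basal epithelium, Arg1 and Mmp12 of macrophages, and immunoglobulin V segments. Krt5, a basal-cell keratin, was at 59.5 CPM in that lung and at 0.125, 0.812 and 0.0478 in the other young lungs, and between 0 and 0.872 in the old. Mmp12, a macrophage elastase, was at 349 CPM against 6.34, 5.55 and 6.55 in the other young lungs and 6.48 to 10.7 in the old. Chil3, a chitinase-like protein of alveolar macrophages, was at 3813 CPM against 431, 451 and 597, with 436 to 591 in the old lungs. In each of these the other 3 young lungs lay near or among the old lungs. Without young replicate 3 the log2 fold change of Mmp12 (old over young) went from -3.37 to 0.54 and that of Krt5 from -5.14 to 0.37, and the adjusted p values went from 1.43e-06 to 0.489 and from 0.000161 to 0.894. Arg1, Retnla, Krt14 and Slc26a4, which were also lower in the old lungs with all 9 libraries, likewise lost the call without young replicate 3.

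**Figure D1:**
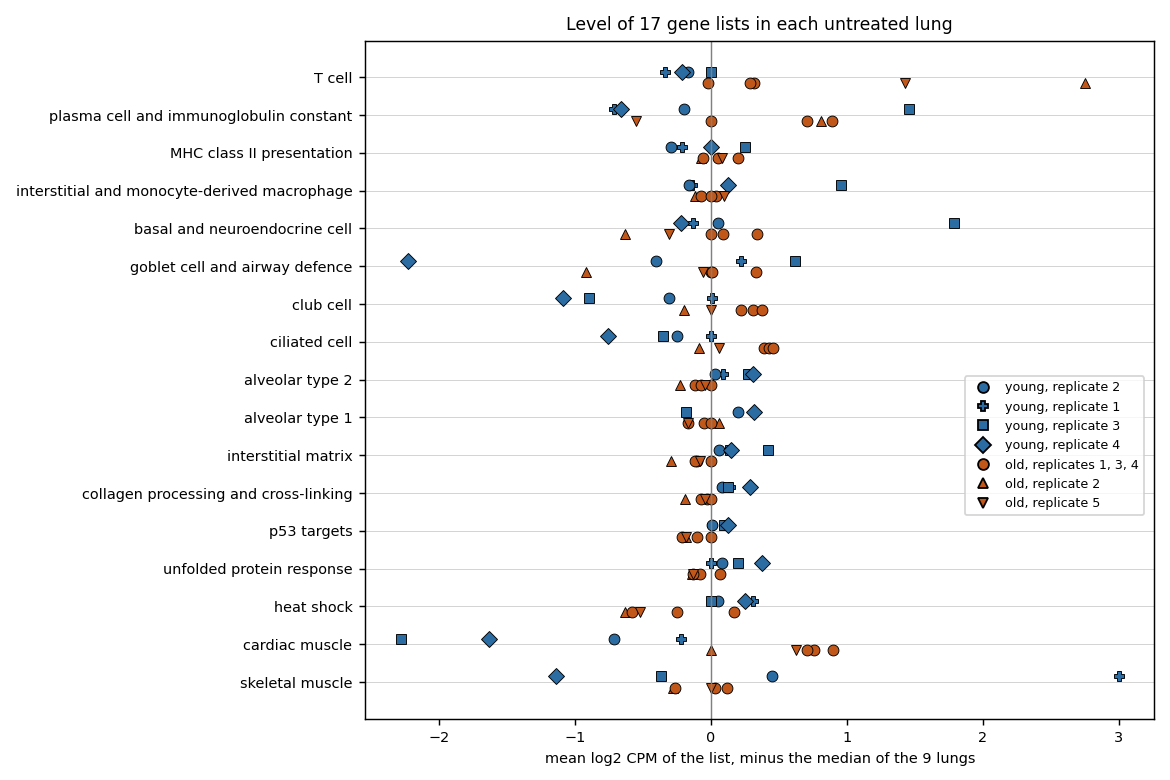
Mean log2 CPM of 17 gene lists in each untreated lung, drawn as the difference from the median of the 9 lungs (horizontal axis) for each list (vertical axis), with blue symbols for young and orange for old lungs. Young replicate 3 lies far right for basal and macrophage lists, young replicate 4 far left for airway lists, young replicate 1 far right for skeletal muscle and old replicate 2 far right for T cells.

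Across the 18396 genes with enough counts, 1021 (5.55%) passed an adjusted p under 0.05, with 734 (3.99%) higher and 287 (1.56%) lower in the old lungs. The test was the edgeR quasi-likelihood test with Benjamini-Hochberg adjustment, fitted on all libraries of the series. The median log2 fold change of all genes was -0.01. In 590 of the called genes the values of the 5 old and the 4 young lungs did not overlap, 447 of them higher in the old (2.43% of all tested genes, and 0.777% for those lower). Over all tested genes, non-overlap occurred in 789 (4.29%) with old higher and in 543 (2.95%) with old lower.

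These counts moved with single lungs. Without young replicate 3 they were 519 higher (2.79%) and 241 lower (1.3%), and 593 of the 1021 calls were kept with the same sign. Without young replicate 4, 323 genes were called, 1.08% of those tested higher and 0.661% lower, and without old replicate 4 406 were higher and 176 lower. Without old replicate 2 there were 558 higher (3.03%) and 157 lower (0.854%). Without both young replicates 3 and 4, a choice made after seeing the data, 32 genes were higher (0.169%) and 22 lower (0.116%). When the spread was taken from the 9 untreated lungs alone, 59 genes were higher (0.356%) and 32 lower (0.193%) of 16572 tested, and 10 and 1 when young replicate 3 was also left out. DESeq2 on all libraries called 847 higher (4.37%) and 331 lower (1.71%). Of the 91 genes called by the 9 lungs alone, 73 were among the 1021.

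A smaller set did not rest on any 1 lung. In all, 0.614% of the tested genes were called with the same sign with all lungs and in each of the 9 fits that left out 1 untreated lung, 90 genes (0.489%) higher and 23 (0.125%) lower in the old lungs. This leave-one-out set was defined after the data were seen. The values of the ages did not overlap in 91.2% of the set, against 4.29% (old higher) and 2.95% (old lower) of all tested genes. Of its genes 45 were also called by the 9 lungs alone, and 9 when young replicate 3 was left out of that fit. In the fit on all libraries without both young replicates 3 and 4, 30 of them were called. All these values come from the same lungs that chose the set, so they describe it and give it no further support.

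Of the 23 genes lower in old lungs, Phex, Veph1 and Mboat2 were clearly separate at low levels, and Zfp57, Mras and Gopc at higher ones. Phex, a membrane endopeptidase known for its part in phosphate balance (ENSMUSG00000057457, chromosome X, 157162075 to 157415312, GRCm38), was at 5.5, 5.19, 6.27 and 5.11 CPM in the young lungs and 1.3, 0.802, 1.91, 2.14 and 1.82 in the old. Every old lung was below every young lung, 5.52 ± 0.529 (SD, n = 4) against 1.59 ± 0.539 (SD, n = 5). The log2 fold change was -1.78 ± 0.23 (SE) with an adjusted p of 1.93e-08, and the largest adjusted p with 1 lung left out was 2.03e-06.

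Veph1, which encodes a membrane-binding protein with a pleckstrin homology domain, was at 2.75, 3.11, 2.36 and 2.2 CPM in the young lungs and 0.648, 0.802, 0.476, 1.15 and 1.04 in the old, a log2 fold change of -1.64 ± 0.32 (adjusted p = 0.000451). Mboat2, an enzyme that adds fatty acids to lysophospholipids, was at 5.04, 3.97, 4.76 and 4.68 against 2.08, 2.78, 2.24, 2.5 and 1.95, with -1.0 ± 0.21 (adjusted p = 0.00133). In both genes every old lung lay below every young lung, young replicates 3 and 4 included.

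Smaller differences at higher levels were as separate. Zfp57, a zinc finger protein that keeps imprinted regions methylated, was at 36.9, 41.1, 36.1 and 37 CPM in the young lungs and 25.1, 24.7, 29.5, 24.6 and 30.4 in the old (log2 fold change -0.49 ± 0.10, adjusted p = 0.000931). Mras, a Ras-family GTPase, was at 25.3 to 28.5 against 16.9 to 23.1 (-0.48 ± 0.10, adjusted p = 0.00079), and Gopc, a Golgi trafficking protein, at 55 to 59.8 against 44.6 to 50.7 (-0.28 ± 0.05, adjusted p = 5.75e-05). The chromatin remodelling ATPase Smarca1 (-1.07), the catenin Ctnnd2 (-0.67), the adhesion molecule Nectin1 (-0.38) and Sptlc2, a subunit of the enzyme that starts sphingolipid synthesis (-0.22), were in this set too, and none of them overlapped between ages, Smarca1 by the narrow gap of 1.29 CPM in young replicate 1 to 1.28 in old replicate 2. Chil4 and Clca1, an airway mucus-associated gene, also stayed in the set, but were high in 2 young lungs only: Chil4, a chitinase-like protein of type 2 inflammation, was at 3.42 and 41.5 CPM in young replicates 1 and 3, at 0.0903 and 0.143 in the other 2 and at 0 to 0.0792 in the old. Without young replicate 3 the log2 fold change of Chil4 went from -8.43 to -5.25 and that of Clca1 from -6.02 to -4.28.

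Among the 90 genes higher in old lungs, 2 enzymes of carbon metabolism were separate in every lung. Got1, the cytosolic aspartate aminotransferase (ENSMUSG00000025190, chromosome 19, 43499752 to 43524605), was at 18.4, 15.6, 18.9 and 17 CPM in the young lungs and 27.7, 27.9, 27.5, 27 and 27.3 in the old. The 5 old lungs differed from each other by less than 1 CPM, 27.5 ± 0.34 (SD, n = 5) against 17.5 ± 1.52 (SD, n = 4), and the log2 fold change was 0.65 ± 0.12 (adjusted p = 0.000106). Pdk1, the kinase that holds back pyruvate dehydrogenase, was at 32.5, 33.3, 32 and 32.6 in the young and 41.2, 60.1, 38.5, 44 and 42.5 in the old, highest in old replicate 2 (0.47 ± 0.09, adjusted p = 0.000184).

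Bbox1, which makes carnitine, was at 2.46, 2.39, 2.52 and 1.39 CPM in the young lungs and 8.24, 5.67, 7.57, 8.84 and 6.17 in the old, a log2 fold change of 1.73 ± 0.30 (adjusted p = 6.76e-05). Grip2, a synaptic scaffold protein (ENSMUSG00000030098, chromosome 6, 91761509 to 91827250), was at 4.13, 2.66, 2.36 and 1.39 in the young lungs and 7.77, 8.34, 10.9, 9.19 and 9.16 in the old (1.78 ± 0.24, adjusted p = 5.9e-08). Ric3, a chaperone of nicotinic acetylcholine receptors, was at 6.76 to 7.96 against 10.4 to 13.7 (0.73 ± 0.13, adjusted p = 5.64e-05). No old lung reached down to a young lung in any of these.

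Smyd3, a lysine methyltransferase, was at 12.6 to 13.6 CPM in the young lungs and 15.5 to 18.9 in the old (log2 fold change 0.42 ± 0.08, adjusted p = 0.00044). Folh1, a carboxypeptidase that removes glutamates from folates, was at 0.334, 0.316, 1.1 and 0.43 against 1.85, 1.6, 2.95, 2.02 and 2.07 (1.92 ± 0.37, adjusted p = 0.000427), highest of the young in replicate 3 and with a log2 fold change of 2.53 without that lung. Rgs20, a regulator of G protein signalling, was at 0.0478 to 0.285 against 0.374 to 1.05 (2.39 ± 0.42, adjusted p = 6.76e-05). Its level was near that of a few reads per library in the young lungs, so its fold is less certain than those of the genes above. Also higher without overlap were the Kv3 potassium channel gene Kcnc1 (1.59), the xenobiotic receptor Nr1i2 (1.53), the zinc-alpha-2-glycoprotein gene Azgp1 (1.34), the diamine oxidase Aoc1 (1.26), the mitochondrial aldehyde dehydrogenase Aldh1b1 (1.20), the glutathione transferase Mgst2 (0.88) and the deubiquitinase Uchl1 (0.79).

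**Figure D2:**
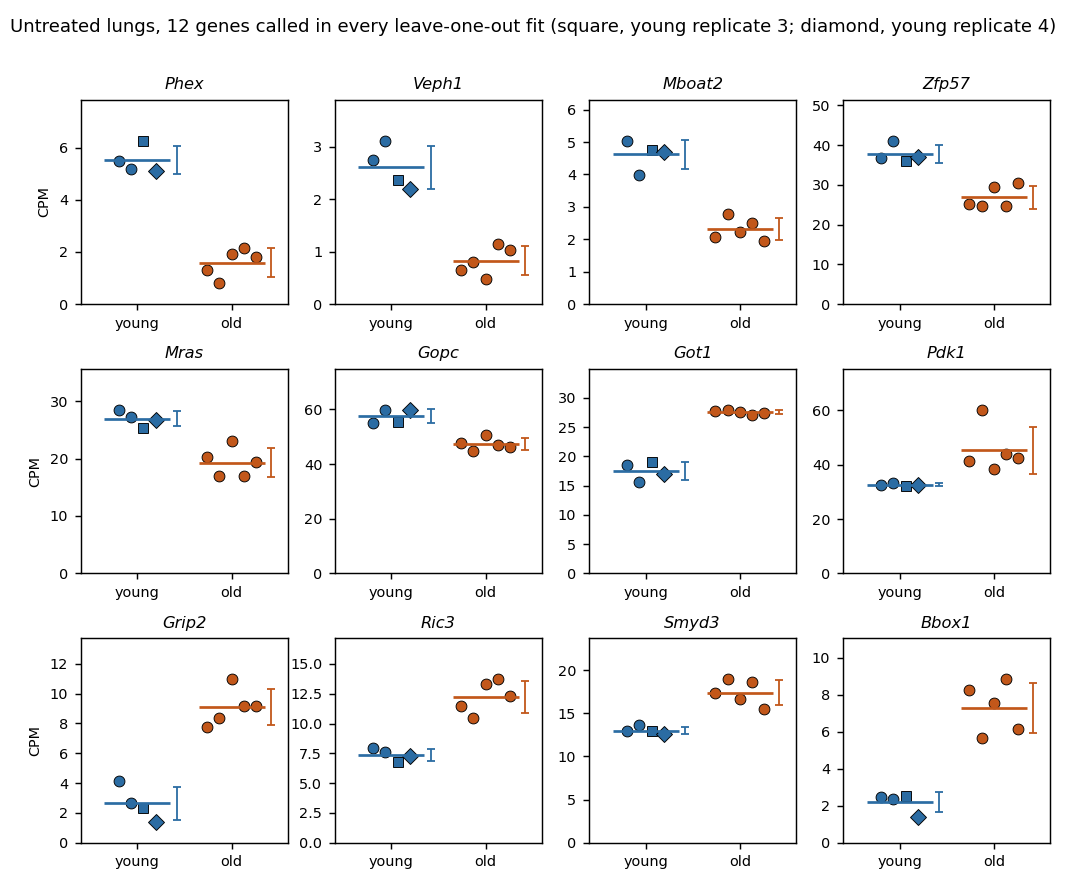
CPM of 12 genes in each untreated lung (vertical axes, from 0), for young (blue, n = 4) and old (orange, n = 5); horizontal lines are means and the bars beside them 1 SD. In all 12 panels the ages do not overlap, and young replicates 3 (square) and 4 (diamond) lie with or near the other young lungs.

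The saline lungs read the age difference in separate mice, with the same split of library numbers by age. Every gene of the leave-one-out set had the same sign there and 94.7% were called in the same direction, against 79.1% of the 1021 calls and 44.5% of all genes; in the saline lungs 57.1% of all genes were called in either direction. Same sign alone was met by 91.4% of the 1021 calls and 68.7% of all genes. Over the set the median absolute log2 fold change was 0.62 in the saline and 1.07 in the untreated lungs, beside 0.14 in both over all genes. The set was chosen on its untreated values, which favours larger values there, so these medians cannot show a weaker age difference in saline lungs. Phex (-1.64 ± 0.09), Mboat2 (-1.22 ± 0.08), Got1 (0.38 ± 0.04) and Ric3 (0.76 ± 0.05) were among those called in both. The 6 not called in the saline lungs were Chil4, Clca1, Hspb7, Cd55b, Adprhl1 and 2810455O05Rik.

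The test of the difference between the untreated and the saline age difference called 183 genes (0.995%), 32 (0.174%) higher and 151 (0.821%) lower in the untreated comparison. When young replicate 3 was left out the count was 7. Mmp12 was among the 183, with a log2 fold change of 1.68 ± 0.20 in the saline lungs, and so were Chil3 (0.63 in saline) and Slc26a4 (0.83 in saline). Without young replicate 3 their untreated values were 0.54, -0.02 and -0.12.

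**Figure D3:**
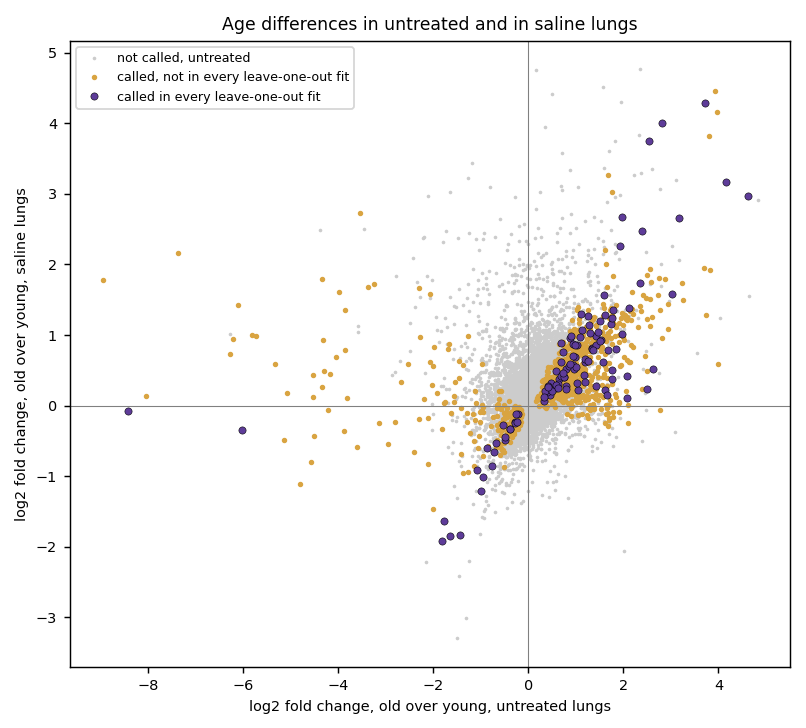
Log2 fold change of old over young in untreated lungs (horizontal axis) and in saline lungs averaged over 6 days (vertical axis), 1 point per gene. The genes called in every fit that leaves out 1 lung (purple) lie in the quadrants of equal sign, and the ochre points are the other called genes, of which 24 were called in the opposite direction in saline lungs.

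T cell genes rose in the old lungs. Of 19 genes on the T cell list, 17 were called higher (background 3.99%) and 0 lower, with a median log2 fold change of 1.74 beside -0.01 for all genes. In the saline lungs all 19 were called higher (background 30.6%), with a median of 1.06, and the test of the difference called 0 of 19. The old lungs were not alike. The list's mean log2 CPM was 2.36 to 2.70 in the young lungs, 3.02, 2.99 and 2.68 in old replicates 1, 3 and 4, 4.13 in old replicate 5 and 5.45 in old replicate 2. Without old replicate 2 only Icos of the 19 stayed called and the median was 0.82, without young replicate 3 15 stayed called, and without young replicate 4 14. With the spread of the 9 lungs alone 0 of the 19 passed by edgeR. On all libraries 18 had an unadjusted p under 0.05 and DESeq2 called 17. Among 16 genes of effector and exhausted T cells 6 were called higher and 1 lower, and among 12 of naive T cells 4 higher, the latter 0 without old replicate 2.

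Cd3e, a signalling chain of every T cell receptor, was at 3.96 to 5.46 CPM in the young lungs and 6.48, 47.8, 8.67, 4 and 17 in the old, with old replicate 4 inside the young range (log2 fold change 1.78 ± 0.39, adjusted p = 0.0016; 0.151 without old replicate 2). Cd8a, the CD8 alpha chain (ENSMUSG00000053977, chromosome 6, 71373427 to 71379173), was at 4.59, 4.92, 5.21 and 5.59 CPM in the young lungs and 9.44, 142.9, 8.52, 7.92 and 18.4 in the old. The 5 old lungs were all above the 4 young lungs, old replicate 2 by far the highest, and the ratio of the medians was 1.86. The log2 fold change was 2.87 ± 0.56 (adjusted p = 0.000447) with all lungs and 1.13 (adjusted p = 0.197) without old replicate 2. Cd8b1, the beta chain, was at 3.33, 3.25, 3.26 and 3.06 against 7.45, 121.5, 5.91, 5.07 and 12.1, with a ratio of medians of 2.29, and it too lost the call without old replicate 2 (adjusted p = 0.183).

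Cd28, the costimulatory receptor of T cells, was at 2.96 to 4.56 CPM in the young lungs and 5.92, 60, 6.48, 5.31 and 20.1 in the old (log2 fold change 2.38 ± 0.47, adjusted p = 0.000583). Thy1 was at 18.2 to 22.4 against 29.8, 206, 31.6, 27.5 and 58.8 (1.79 ± 0.32, adjusted p = 0.000108), and Ccl5, a chemokine stored by memory CD8 T cells, at 10.5 to 14.3 against 20.1, 278, 23.2, 17.2 and 69.1 (2.75 ± 0.58, adjusted p = 0.00116). In all 3 the ages did not overlap, and the call was lost without old replicate 2, at adjusted p values of 0.0624, 0.0603 and 0.111. The chemokine receptors Cxcr3 (2.57) and Cxcr6 (1.32) and the effector genes Crtam (2.57), Cst7 (2.49) and Ms4a4b (2.34) were also non-overlapping, highest in old replicate 2 and not called without it.

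Gzmk, a granzyme of a T cell state that accumulates with age, rested on another lung. It was at 0.0956 to 0.326 CPM in the young lungs and 0.602, 0.588, 1.05, 0.792 and 10.7 in the old, highest in old replicate 5, and the ages did not overlap (log2 fold change 3.79 ± 0.94, adjusted p = 0.0067). Without old replicate 5 it was 1.92 (adjusted p = 0.27). The saline lungs gave 3.82 ± 0.36 (adjusted p = 7.33e-17). Icos, a costimulator of activated T cells, was the member that no single lung decided, at 2.83, 2.39, 3.91 and 2.39 against 4.35, 6.47, 5.33, 3.76 and 7.92 (0.94 ± 0.22, adjusted p = 0.00303), with 1 old lung inside the young range. Cd4, the helper T cell co-receptor, was at 6.34, 9.3, 11.8 and 5.02 against 6.29, 3.96, 7.19, 6.7 and 29.7, and did not pass (0.41 ± 0.32, adjusted p = 0.522): old replicate 2 was the lowest of all lungs and old replicate 5 the highest.

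**Figure D4:**
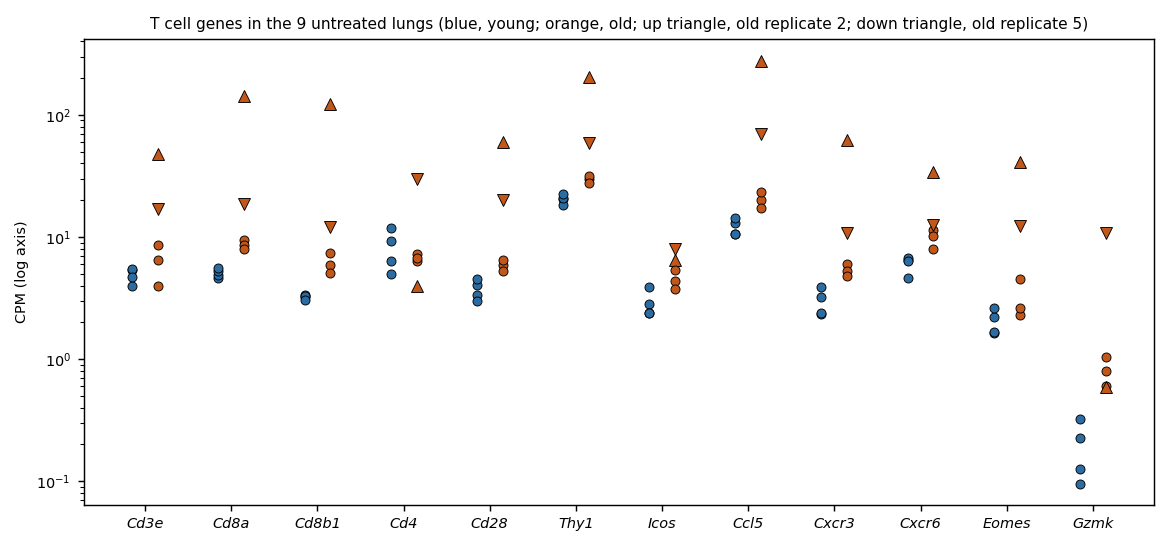
CPM of 12 T cell genes on a log axis in the 4 young (blue) and 5 old (orange) untreated lungs, with old replicate 2 as up triangles and old replicate 5 as down triangles. Cd8a and Cd8b1 reach 142.9 and 121.5 CPM in old replicate 2, whose Cd4 is the lowest of the 9 lungs at 3.96 CPM, while Gzmk is highest in old replicate 5.

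Counts on the T cell receptor beta V segments, looked at after these values were seen, differed between these 2 lungs and the rest. Old replicate 2 had 442 Trbv reads, of which 399 (90.3%, exact 95% interval 87.1 to 92.9) were on Trbv13-1 (ENSMUSG00000076467, chromosome 6, 41116007 to 41116468). In the other 8 lungs Trbv13-1 took between 2.87% and 9.18%. Old replicate 5 had 349 Trbv reads, and 152 of them (43.6%, 38.3 to 48.9) were on Trbv3, which took 0.452% to 8.77% elsewhere. In the other 7 lungs, with 3.59 to 5.57 Trbv reads per M reads each against 24.2 and 14.9 in these 2, the leading segment was Trbv13-2, at 17.3% to 26.1%. The alpha chain was also dominated by few segments in old replicate 2, with 357 Trav reads against 10 to 91 in the other lungs, 59.7% on Trav3-3 and 30% on Trav7-3. These intervals cover counting error only, and the sources used here do not give how reads shared by related V segments were assigned. The NK cell gene Ncr1 went the other way, with 8 reads in old replicate 2 and at least 67 in each other lung. With Ncr1, the killer cell lectin-like receptor genes Klra8, Klra4 and Klri2 and the granzyme Gzma were among 19 genes at least 4-fold below every other lung there. Klrb1c, another NK cell gene, was not: its 58 reads in old replicate 2 lay within the range of the other lungs. The mean log2 CPM of the cytotoxic and NK cell list was highest of all lungs in old replicate 2, at 2.68. That list also holds Eomes and Fasl, called higher in the old lungs and highest in old replicate 2, so it does not read NK genes alone. The thymocyte genes Dntt, Rag1 and Ptcra had 0 to 12 reads in any lung. Among saline lungs the leading Trbv segment took a median of 20.7% of Trbv reads in the old (highest 69%) and 18.5% in the young (highest 31.2%).

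**Figure D5:**
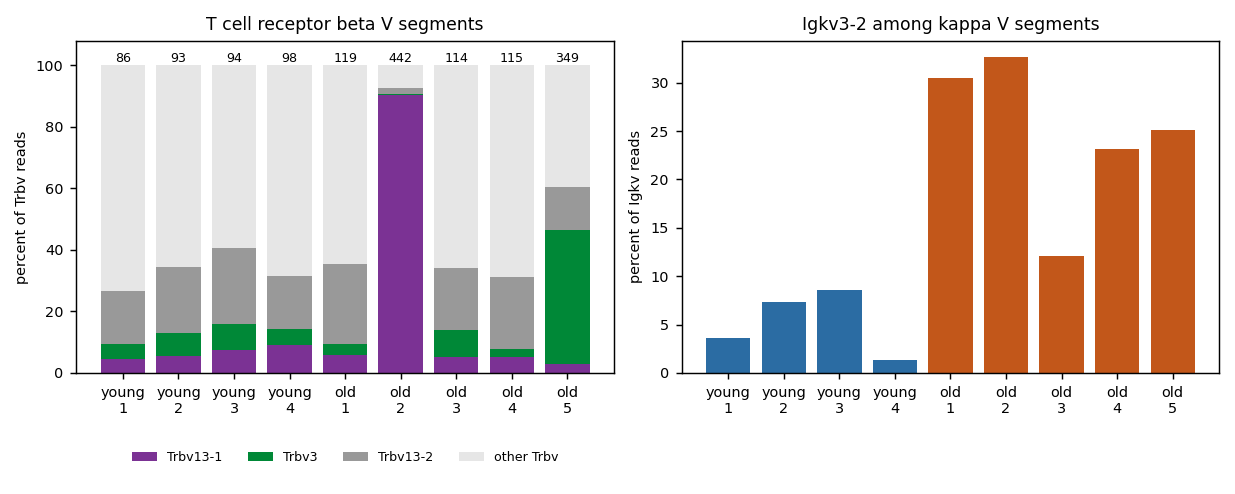
Left, percent of T cell receptor beta V reads on Trbv13-1, Trbv3, Trbv13-2 and all other segments in each untreated lung, with the number of Trbv reads above each bar; right, percent of immunoglobulin kappa V reads on Igkv3-2 (blue, young; orange, old). Trbv13-1 takes 90.3% in old replicate 2 and Trbv3 43.6% in old replicate 5, and all 5 old lungs are above all 4 young lungs for Igkv3-2.

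Promoters of T cell list genes are shown because most of these genes rose. RefSeq (GRCm38.p6) gave a promoter for 9 of the 19. The 250 bases before the start were searched on both strands for CAGGAAG (ETS family), TGTGGT (RUNX family) and AGGTGT (T-box family), which are in capitals, 5′ to 3′ on the gene's strand. The examples printed all hold CAGGAAG, which some of the 9 genes lack, so they are not typical of the 9. For Lck the promoter with 3 matches is printed and another with 1 is not.
Cd3e, chr9:45009612-45009861, minus strand: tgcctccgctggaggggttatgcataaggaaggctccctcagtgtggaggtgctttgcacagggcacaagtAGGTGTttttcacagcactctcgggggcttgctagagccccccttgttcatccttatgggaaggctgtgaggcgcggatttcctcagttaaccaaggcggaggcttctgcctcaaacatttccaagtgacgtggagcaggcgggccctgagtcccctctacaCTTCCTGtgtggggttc
Cd5, chr19:10738975-10739224, minus strand: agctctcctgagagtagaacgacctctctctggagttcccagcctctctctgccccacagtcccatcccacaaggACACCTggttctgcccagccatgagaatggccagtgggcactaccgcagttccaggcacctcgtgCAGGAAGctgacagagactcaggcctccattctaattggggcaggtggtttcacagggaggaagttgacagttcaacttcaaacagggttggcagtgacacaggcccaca
Lck, chr4:129573642-129573891, minus strand: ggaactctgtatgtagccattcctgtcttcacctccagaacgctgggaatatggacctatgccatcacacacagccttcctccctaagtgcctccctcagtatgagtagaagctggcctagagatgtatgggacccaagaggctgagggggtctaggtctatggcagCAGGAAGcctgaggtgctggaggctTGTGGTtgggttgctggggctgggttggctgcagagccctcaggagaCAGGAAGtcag
Counted per gene, in any of its promoters, CAGGAAG was found in 5 of the 9 genes (Cd247, Cd3e, Cd5, Lck and Zap70) and in 12.1% of all 27025 genes. AGGTGT was found in 4 of 9 (13.6% of all) and TGTGGT in 2 of 9 (15.9%). Of all 32851 promoters, 10.8% held the ETS, 11.8% the T-box and 14.0% the RUNX motif. A match in these letters describes the sequence and says nothing of binding.

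Antibody genes did not separate by age with all lungs. On the list of plasma cell and immunoglobulin constant genes 0 of 20 passed by edgeR and 0 by DESeq2, with 1 at an unadjusted p under 0.05 and a median log2 fold change of 0.00. Without young replicate 3 the median was 0.86, again with 0 called. Jchain, which joins polymeric antibodies, was at 27.5, 41.2, 268 and 12.8 CPM in the young lungs and 140.2, 102.5, 37.6, 119.3 and 22.8 in the old, so that the highest of all lungs was young replicate 3. Without that lung its log2 fold change was 1.63 (adjusted p = 0.133) in place of -0.05 (adjusted p = 0.977). In the saline lungs 17 of the 20 were called higher (background 30.6%), and Jchain was among 3 of 20 for which the 2 age differences differed (adjusted p = 0.0405), with 0 of 20 once young replicate 3 was left out. Ighm, the IgM heavy chain, had the same order, at 136.8, 286, 1632 and 142.6 against 719, 684, 350, 700 and 270.

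The share of 1 kappa V segment did separate by age. Igkv3-2 took 3.65%, 7.34%, 8.56% and 1.32% of Igkv reads in the young lungs and 30.5%, 32.7%, 12.1%, 23.1% and 25.1% in the old, where it was the leading segment in all 5. It led in 0 of the 4 young lungs, and young replicate 3, with 11122 Igkv reads the deepest of all, was still below the lowest old lung. In the saline lungs the median share was 17.3% in the old and 2.04% in the young, with ranges of 2.41% to 42.1% and 0.468% to 36%, and it led in 25 of 40 and 5 of 29. This segment too was singled out after its values were seen, and as a gene its level did not pass the untreated test (log2 fold change 1.96 ± 1.12, adjusted p = 0.332).

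MHC class II genes, which present antigen to CD4 T cells, showed no call in the untreated lungs. Of the 12 MHC class II genes 0 passed by edgeR and 0 by DESeq2 (1 at an unadjusted p under 0.05), with a median of 0.02. H2-Aa, a class II alpha chain, was at 400, 362, 472 and 457 CPM in the young lungs and 469, 400, 409, 449 and 473 in the old, with the ages overlapping fully (0.06 ± 0.15, adjusted p = 0.892). All 12 were called higher in the saline lungs (background 30.6%), with a median of 0.67. The test of the difference called 6 of the 12 (background 0.995%), Cd74 among them (adjusted p = 0.0479), and 0 without young replicate 3, whose list level of 6.39 was the highest of the 9. The 14 B cell genes were all higher by sign with 0 passed by either tool (0 at an unadjusted p under 0.05), and Cd79a gave 0.29 ± 0.43. The median of the B cell list was 0.31 with all lungs and 0.63 without young replicate 3.

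Interstitial matrix genes showed no untreated call in the fits on all libraries, and most had a lower fitted level in the old. Of 25 genes 0 passed there by edgeR and 0 by DESeq2 (8 at an unadjusted p under 0.05). With the spread of the 9 lungs alone 2 were called lower by edgeR (background 0.193%). By sign 24 were lower, 8 did not overlap between ages (background 2.95%), and the median was -0.34. Col3a1, the type III collagen chain (ENSMUSG00000026043, chromosome 1, 45311538 to 45349706), was at 954, 820, 1216 and 1191 CPM in the young lungs and 619, 595, 670, 618 and 672 in the old. Every old lung was below every young lung, 635 ± 34.4 (SD, n = 5) against 1045 ± 191 (SD, n = 4), yet the adjusted p was 0.0626 (log2 fold change -0.72 ± 0.25) with the spread of the whole series and 0.0365 with that of the 9 alone. Col1a1 was at 466, 436, 560 and 484 against 365, 344, 383, 377 and 382, also without overlap (-0.39 ± 0.32, adjusted p = 0.548; 0.0587 by the 9 alone).

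Serpinh1, the collagen chaperone, did pass, at 503, 497, 471 and 683 CPM in the young lungs against 345, 351, 401, 328 and 368 in the old (log2 fold change -0.59 ± 0.16, adjusted p = 0.0195), and it lost the call without young replicate 4 (0.188) or old replicate 4. The list level of interstitial matrix was 7.24 to 7.60 in the young lungs and 6.89 to 7.18 in the old, and that of collagen processing 5.66 to 5.87 against 5.39 to 5.58. In the saline lungs 12 of the 25 matrix genes were called lower and 1 higher (backgrounds 26.5% and 30.6%), and Col3a1 fell by 0.49 on the log2 scale (adjusted p = 2.21e-06). Agrn, a basement membrane proteoglycan, was lower (-0.35, adjusted p = 0.0414), a call kept in 2 of the 9 fits that left out 1 lung. Col4a3 gave -0.31 (adjusted p = 0.413) and the elastin gene Eln -0.10 (adjusted p = 0.906).

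Genes of the p53 and heat shock lists showed no call in the untreated lungs. On the list of 17 p53 targets 0 passed by edgeR and 0 by DESeq2 (5 at an unadjusted p under 0.05), and all 17 were lower in old lungs by sign, with 5 not overlapping (background 2.95%) and a median of -0.19. Cdkn1a, which encodes the cell cycle inhibitor p21, was at 368, 346, 382 and 404 CPM in the young lungs and 330, 230, 312, 253 and 284 in the old (log2 fold change -0.41 ± 0.15, adjusted p = 0.0889), without overlap. On the senescence list 0 of 16 passed by either tool (2 at an unadjusted p under 0.05). Cdkn2a, the p16 locus, gave -0.15 ± 0.37 (adjusted p = 0.877) in the untreated lungs and 1.09 ± 0.15 (adjusted p = 1.97e-10) in the saline lungs, and the difference between the 2 did not pass (adjusted p = 0.103). Its highest level was 2.36 CPM in young replicate 3. Without that lung the untreated value was 0.30 (adjusted p = 0.736), and the adjusted p of the difference was 0.52. Of 16 heat shock genes 0 passed by either tool (6 at an unadjusted p under 0.05), while in the saline lungs all 16 were called lower (background 26.5%). Hspa1a was at 25.1 to 45.6 in the young lungs and 13.3, 3.9, 33, 7.17 and 7.67 in the old, where replicate 3 lay among the young (-1.30 ± 0.55, adjusted p = 0.144). Of 20 unfolded protein response genes Dnajb9 alone was called by edgeR (-0.51, adjusted p = 0.0226; background 1.56%; 2 genes by DESeq2), and it lost the call without young replicate 4 (0.265), old replicate 2 (0.0594) or old replicate 4. Of the 20, 8 were lower in old lungs without overlap, against 2.95% of all genes.

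Alveolar genes and the club and ciliated cell genes of the airway went opposite ways by sign. All 15 alveolar type 2 genes and 13 of 14 alveolar type 1 genes had a lower fitted level in the old lungs, with 2 and 1 called (background 1.56%) and medians of -0.26 and -0.27. Cldn18, the tight junction protein of alveolar epithelium, was at 762, 715, 579 and 945 CPM in the young lungs and 487, 546, 534, 543 and 498 in the old, without overlap (-0.52 ± 0.14, adjusted p = 0.0126), and the call was lost without young replicate 4 (0.169). All 12 club cell and all 14 ciliated cell genes were higher by sign, with 1 and 0 called by edgeR (background 3.99%), 2 and 3 by DESeq2 and 6 and 11 at an unadjusted p under 0.05. Scgb1a1, the club cell secretory protein, was at 20230, 16090, 10110 and 14770 against 25280, 19620, 23080, 23250 and 18460 (0.52 ± 0.24, adjusted p = 0.2). Young replicates 3 and 4 were lowest for the club and ciliated lists, at 7.62 and 7.43 for club cell genes against 8.21 to 8.90 in the other 7 lungs. The saline medians of these lists were -0.05 and 0.19. Other airway lists did not rise with all lungs. Of goblet cell and airway defence genes 8 of 15 were higher by sign and 1 was called lower (median 0.05). The median of that list moved with single lungs, to 0.63 without young replicate 3 and to -0.14 without young replicate 4. Of basal and neuroendocrine genes 4 of 12 were higher by sign and 4 were called lower (median -0.18), 0 without young replicate 3. Ccdc181 (0.68), Cep70 (0.59) and Tmem67 (0.50), known as genes of cilia or centrosomes, were in the leave-one-out set, and the part of airway content in their difference was not tested.

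Heart muscle genes, which the lung expresses in the walls of its large veins, were higher in the old untreated lungs. Of 12 genes 7 were called higher (background 3.99%), 7 did not overlap (background 4.29%) and the median was 1.64. Tnnt2, cardiac troponin T, was at 73.5, 41.9, 14.4 and 24.2 CPM in the young lungs and 144.6, 78, 117.1, 140.6 and 122.8 in the old (1.65 ± 0.49, adjusted p = 0.0281), a call lost without young replicate 2, 3 or 4 or old replicate 4. Myh6, the atrial myosin heavy chain, was at 167, 114.6, 32.8 and 34.6 against 273, 159, 333, 366 and 349, and did not pass (1.76 ± 0.62, adjusted p = 0.0712). Young replicates 3 and 4 were the 2 lowest lungs for both, and 1 of the 12 stayed called when either was left out. The saline median of the list was -0.02. Mybpc3 was the member in the leave-one-out set, at 6.04, 3.7, 1.47 and 2.72 against 11.3, 9.09, 18.3, 18.9 and 15.6 (2.07 ± 0.50, adjusted p = 0.00579). Other muscle genes of that set were Hspb7 (1.62), Fabp3 (1.42), Asb2 (1.05) and Adprhl1 (2.49), and their age difference was larger there than in the saline lungs (adjusted p of the difference 0.0384, 0.0405, 0.0405 and 0.0416). Without young replicate 3 none of these 4 differences passed (0.382, 0.442, 0.362 and 0.382). How much of these differences follows the amount of vein wall in each sample was not tested.

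Skeletal muscle genes were high in young replicate 1, with a list level of 3.58 against -0.56 to 1.03 in the other 8 lungs. Of 11 genes 6 were called lower in the old lungs (background 1.56%), and Acta1, skeletal actin, was at 42.9, 1.08, 1.22 and 0.0478 CPM in the young lungs and 0.0953 to 0.332 in the old (log2 fold change -5.73 ± 1.10, adjusted p = 0.00036). Without young replicate 1 its call was lost (adjusted p = 0.387).

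Among the 12 largest falls of called genes without overlap, taken by a fixed rule, were Chil4 (-8.43), Col6a5 (-2.95), Phex, Veph1, D6Ertd527e (-1.55), Grp (-1.15), Smarca1, Brinp1 (-1.03), Ccl22 (-1.0), Mboat2 and Ifi27l2a (-0.98). Of these, Col6a5, D6Ertd527e, Ccl22 and Ifi27l2a lost the call without young replicate 3, where all 4 were highest, and Grp, Brinp1 and Ifi27l2a without young replicate 4. Grp was also lost without old replicate 2 or 4, and Ifi27l2a without any lung but young replicate 1. The 12 largest rises were led by Dmrta1, a transcription factor gene, with 0.0407 to 0.191 CPM in the young lungs and 0.509, 13.2, 0.714, 0.555 and 0.787 in the old (4.62 ± 0.76, adjusted p = 1.98e-05). The other 11 were Gzmk, Cd8b1, Cd8a, Ccl5, Cxcr3, Heatr9 (2.57), Crtam, Cst7, Adprhl1, Cd28 and Ms4a4b, of which all but Gzmk and Adprhl1 were highest in old replicate 2. Dmrta1 stayed called without any 1 lung, but without old replicate 2 its log2 fold change was 2.35 (adjusted p = 0.0433). Heatr9 lost the call without that lung.

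The remaining genes of the fixed panel did not pass. For the tissue markers the log2 fold changes were -0.36 (adjusted p = 0.343) for Sftpc, -0.38 (0.168) for Ager and 0.03 (0.912) for Pecam1. Those of the others, with adjusted p, were 0.38 (0.706) for the proliferation marker Mki67, 0.26 (0.866) for Igkc, -0.89 (0.208) for Cxcl13, -0.34 (0.761) for Ccl8, 0.09 (0.818) for H2-K1 and -0.18 (0.879) for Marco. They were -0.18 (0.521) for the complement gene C4b, 0.22 (0.837) for the clock output Dbp, 0.57 (0.364) for Fos, 0.10 (0.973) for the haemoglobin gene Hbb-bs and -1.18 (0.404) for Adipoq. Cxcl13, Ccl8 and Adipoq were highest of all lungs in young replicate 3. Without that lung their log2 fold changes were 0.11, 0.29 and 0.04. The untreated and saline age differences of C4b differed (adjusted p = 0.0218), but not without young replicate 3 (adjusted p = 0.338). Calls were spread over the genome, from 3.93% of the tested genes on chromosome 17 to 7.01% on chromosome 14. By exonic length the untreated medians lay between -0.02 and 0.00 in all 5 bins of equal size, where those of the saline comparison went from 0.11 for the shortest to -0.05 for the longest.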

How the data were processed

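Poly-A RNA of whole lungs was sequenced, and the deposited table holds raw read counts per gene for 137 lungs, normalised in no way. Per the submitters' processing notes, the tools included FastQC 0.11.5, STAR 2.5.2 and featureCounts 1.5.1, and GRCm38 was among the builds. Strand setting, annotation release and the treatment of multiply mapped reads are not given in the sources used here. Gene names came from GENCODE M21, which matched 48434 of 48794 genes.

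Counts were scaled by TMM, genes kept by filterByExpr (minimum count 10, minimum total 15; 18396 genes) and tested with edgeR 4.0.16 in R 4.3.3 by the quasi-likelihood F test on all 137 libraries in 26 groups of age, treatment and day, with 111 residual degrees of freedom. Calls have a Benjamini-Hochberg adjusted p under 0.05. DESeq2 1.42.0, other scaling, no filter, smaller sets of libraries and each untreated lung left out were alternatives. Saline values are means over 6 days. List levels are means of log2 CPM with a prior count of 2. Code was tested on simulated counts. Besides a fixed panel, the 12 largest rises and falls were named among called, non-overlapping genes with a mean of at least 2 CPM in the higher group, leaving out predicted genes and receptor segments. Some genes chosen by these rules are not reported here. The gene lists and members were chosen with earlier results of these data known.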

Additional observations from a re-analysis of the deposited data

Results flagged for a closer look

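In several genes 1 lung lay far from the others of its age, by Dixon's test on the 4 or 5 lungs. Chance meets it in about 1 in 20 groups taken without regard to their values. The genes tested were those with values per lung given above, some of them named because 1 lung stood out, so that rate does not hold here. Young replicate 3 was highest for Chil3 (3813 CPM), Ighm (1632), Mmp12 (349), Jchain (268), Krt5 (59.5), Chil4 (41.5) and Folh1 (1.1), and for the basal and neuroendocrine list (mean log2 CPM 1.73). Old replicate 2 was highest for Ccl5 (278 CPM), Thy1 (206), Cd8a (142.9), Cd8b1 (121.5), Pdk1 (60.1), Cd28 (60.04) and Dmrta1 (13.2), and old replicate 5 for Cd4 (29.7) and Gzmk (10.7). Young replicate 4 was highest for Sftpc (26200 CPM) and Serpinh1 (683) and lowest for Bbox1 (1.39). Young replicate 1 was highest for Acta1 (42.9 CPM), and old replicate 1 for the unfolded protein response list (mean log2 CPM 7.43).

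The age difference of some genes differed between untreated and saline lungs by the edgeR test of that difference. The adjusted p was 5.74e-11 for Mmp12, 4.95e-08 for Krt14, 7.42e-08 for Slc26a4, 5.2e-05 for Chil3, 9.08e-05 for Col6a5, 0.000108 for Arg1, 0.000155 for Chil4 and 0.000882 for Retnla. It was 0.00449 for D6Ertd527e, 0.00455 for Krt5, 0.0171 for Clca1, 0.0218 for C4b, 0.0384 for Ccl22, 0.0405 for Jchain and 0.0479 for Cd74. For muscle genes it was 0.000403 for Acta1, 0.0384 for Hspb7, 0.0405 for Fabp3, 0.0405 for Asb2, 0.0416 for Adprhl1 and 0.044 for Ryr2. Without young replicate 3 the count of such genes was 7 in place of 183.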

How the results depend on the processing

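The count of 1021 untreated calls was 644 with no filter on low counts, 1578 with untreated and saline libraries only, 91 with the 9 lungs alone, 11 when young replicate 3 was also left out, and 54 without young replicates 3 and 4. The last 2 settings were added after seeing the data. Leaving out 1 lung gave 323 (without young replicate 4) to 1018, RLE scaling 1021 and DESeq2 1178. The share of tested genes whose age difference differed between untreated and saline lungs, 0.995%, was 0.306% with no filter, 2.17% with untreated and saline libraries only, and 0.0423% without young replicates 3 and 4. It was 0.0376% (without young replicate 3) to 2.09% (without young replicate 1) when 1 lung was left out, with 0.473% and 0.642% without old replicates 3 and 4. The share of calls with the same sign in saline lungs was 97.5% without young replicate 3, against 91.4%. Reversed signs, whose cause was not tested beyond the lungs left out, were 0.05 (Arg1), 0.37 (Krt5) and 0.54 (Mmp12) without young replicate 3, in both the fit on all libraries and that on the untreated lungs. With 1 lung left out, the ranges were -4.57 to 0.05 (Arg1), -5.63 to 0.37 (Krt5) and -3.76 to 0.54 (Mmp12). Without young replicates 3 and 4 they were 0.25 (Arg1), 0.13 (Chil3), 0.58 (Mmp12) and 0.05 (Retnla). Of 154 genes looked at singly, 22 lost the call and 3 reversed without young replicate 3, 23 lost it without young replicate 4 and 34 without old replicate 2. RLE scaling changed 0 of them and DESeq2 added 2 calls. No paired analysis was possible because no number in the titles ties an old lung to a young one. Genes near a few reads per lung, such as Rgs20, are limited by depth.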
